A study of Mus musculus with 6 samples.

Results

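The 55 genes described here encode nucleolar factors that make ribosomes. They were chosen by gene symbol from a fixed list, and all 55 were found among the 27179 genes of the table of B16F10 cells. They were sorted by role into 6 genes of the RNA polymerase I machinery, 8 of the small nucleolar ribonucleoproteins (snoRNPs), 21 factors of the small ribosomal subunit, 16 factors of the large subunit and 4 multifunctional nucleolar proteins. B16F10 is an established mouse melanoma line, wild type per the labels. Cells were cultured for 6 h with 0.01% ozonated olive oil (OZO, 3 libraries) or with 0.01% olive oil without ozone (OLO, 3 libraries). The value analysed was the average level of each gene over all 6 libraries, so it describes OZO-treated and OLO-treated cells together. Levels of single libraries and the contrast of OZO with OLO were not analysed here. Nothing below therefore says whether OZO changed any of these genes, and the spread between cultures is unknown.

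Ribosome synthesis begins in the nucleolus, where RNA polymerase I transcribes a long precursor of the ribosomal RNAs. SnoRNPs guide the methylation and pseudouridylation of this precursor, and a large assembly around the U3 snoRNP, the small subunit processome, cuts and folds the part that becomes the small subunit. A separate set of GTPases, helicases and methyltransferases builds the large subunit. Growing tumor cells are known for active nucleoli.

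The average levels were on the log2 CPM scale, in which counts are scaled to a common library size after the authors' limma-voom has added 0.5 reads to each count. For comparison between genes they were divided by the length of all exons of a gene together, and are then given as levels per kb. These lengths came from GENCODE M21 and may differ from the exons over which the authors counted reads. Genes without reads shared the lowest average, from which a geometric mean library size of 19641945 reads followed, so that 1 CPM stood for 19.6 reads per library. The members rested on 171 reads per library (Imp3) to 52566 (Ncl), which gave a relative counting error of the average between 3.12% and 0.178%. These figures cover counting error only. The 7 melanocyte markers had average levels from 109 CPM (Sox10) to 7052 CPM (Dct). The 11 markers of leukocytes, epithelium, fibroblasts and endothelium reached at most 5.47 CPM (Cd68), and 7 of them were under 1 CPM, including Ptprc at 0.0702 CPM and Krt5 without any read.

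All 55 members had an average level of at least 1 CPM. Their median level was 6.49 on the log2 CPM scale, against 5.06 for the 11477 genes at 1 CPM or more that had a length in the annotation. Per kb, the median level was 4.60 for the members and 2.86 for those genes on the log2 scale. Of the members, 49 lay above the median of the expressed genes per kb, 33 above the 75th percentile and 14 above the 90th. The 6 members at or under the median per kb were Polr1b, Polr1e, Rrp9, Nop9, Wdr12 and Rrp1b. Without length correction 48 members lay above the median, Wdr12, Rrp1b and Polr1b among them. Polr1e, Rrp9 and Nop9 were then under it together with Imp3, Gar1, Noc4l and Grwd1. Between the highest member, Npm1 with a level of 601 CPM per kb, and the lowest, Polr1e with 3.71 CPM per kb, the levels per kb differed 162-fold.

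**Figure D1:**
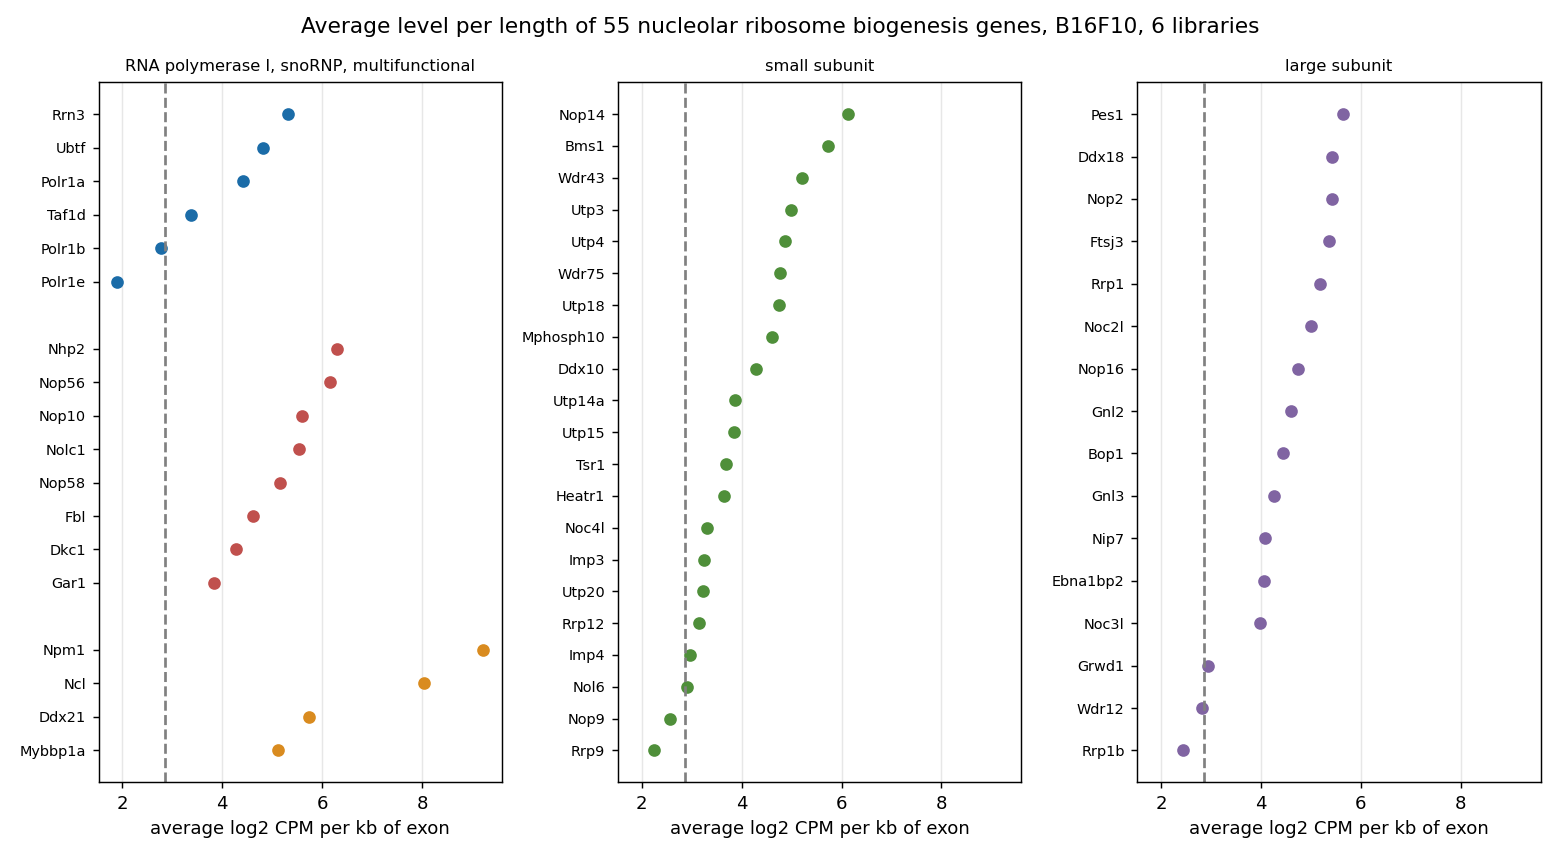
Average level per kb of exon (log2 CPM per kb, horizontal axis) of each member, 1 point per gene, ordered within its class; the panels hold the RNA polymerase I, snoRNP and multifunctional genes, the small subunit factors and the large subunit factors. The dashed line is the median of 11477 expressed genes, 2.86, and most members lie to its right.

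The multifunctional proteins Ncl and Npm1 stood far above the other members. Ncl, which encodes the RNA-binding protein nucleolin, lies on chromosome 1 of GRCm38 from 86344719 to 86359400 on the minus strand and had an average level of 2676 CPM. Npm1, which encodes the histone and ribosomal protein chaperone nucleophosmin, lies on chromosome 11 from 33152287 to 33163206 on the minus strand and averaged 1600 CPM. When the average CPM values of all members were added, Ncl and Npm1 made up 43.3% of the sum. Per kb the order of this pair was reversed, with log2 levels of 9.23 for Npm1 and 8.04 for Ncl, whose exons together span 10.19 kb. Ddx21, an RNA helicase of the nucleolus, had a level of 275 CPM, and Mybbp1a, a regulator of RNA polymerase I transcription, one of 202 CPM. Both also lay high per kb, at the 93.4th and the 88.5th percentile of expressed genes.

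Among the RNA polymerase I genes, the levels of polymerase subunits were unequal. Polr1a, the largest subunit, had a level per kb of 4.41 on the log2 scale. Polr1b, its catalytic partner, had 2.76, and Polr1e, a subunit that aids initiation, had 1.89, the lowest level per kb of all members. The highest and the lowest of these 3 subunits thus differed 5.74-fold per kb, and the order Polr1a, Polr1b, Polr1e was the same with each of 3 gene lengths. Per kb, the initiation factors Rrn3 and Ubtf lay above all 3 subunits. Without regard to length, Polr1a (253 CPM) lay above Ubtf (185 CPM) and Rrn3 (172 CPM). Rrn3, which carries the polymerase to the promoter, had a level per kb of 5.32, and Ubtf, the HMG-box protein that holds ribosomal DNA open, had 4.82. Taf1d, a subunit of the promoter selectivity factor SL1, had 3.38 with its 8.95 kb of exons. Its coding sequence has only 966 bases, and per kb of coding sequence Taf1d (6.59) lay above Rrn3 (6.45) and Ubtf (6.34).

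The snoRNP genes had the highest class median after the multifunctional proteins, 5.35 on the log2 scale per kb, and all 8 lay above the median of expressed genes. In the box C/D particle, which methylates ribosomal RNA, the scaffold proteins Nop56 and Nop58 had levels per kb of 6.15 and 5.16, and the methyltransferase Fbl had 4.61. In the box H/ACA particle, Nhp2 had 6.30 and Nop10 had 5.60, whereas the pseudouridine synthase Dkc1 had 4.27 and Gar1 had 3.83. Nhp2 and Nop10 are short genes, with exons of 1.15 and 1.11 kb. Without regard to length, Nop10 (53.6 CPM) lay below Dkc1 (79.4 CPM) and Nhp2 (90.1 CPM) above it. Gar1 was the lowest of the 4 both ways, at 24.3 CPM. Nolc1, a chaperone that binds both kinds of particle, had a level per kb of 5.53.

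The 21 small subunit factors had the lowest class median per kb, 3.85 on the log2 scale. It lay just under the 3.90 of the 6 RNA polymerase I genes. The small subunit factors spread over a 14.7-fold range. Nop14 was the highest with 6.13, followed by the GTPase Bms1 with 5.74. Noc4l, the partner of Nop14, had 3.30. The t-UTP genes, whose products bind the precursor early, all lay above the median of expressed genes. Wdr43 had a level per kb of 5.21, Utp4 of 4.87, Wdr75 of 4.78, Utp15 of 3.85 and Heatr1 of 3.65, a 2.95-fold range. In the MPP10 complex, which joins the U3 RNA to the precursor, Mphosph10 had 4.60, Imp3 had 3.24 and Imp4 had 2.96. Imp3, a gene with 0.92 kb of exon, had the lowest level of all members without regard to length, 8.75 CPM. Rrp9, a protein of the U3 snoRNP itself, had the lowest level per kb of the class, 2.25. The other small subunit genes ran from Utp3 (4.98), Utp18 (4.76), the helicase gene Ddx10 (4.29), Utp14a (3.87) and Tsr1 (3.68), which acts late on the cytoplasmic precursor, down to Utp20 (3.23), Rrp12 (3.14), Nol6 (2.91) and Nop9 (2.56) on the same scale.

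For the 16 large subunit factors the class median per kb was 4.53 on the log2 scale. Pes1 led the class per kb of exon with 5.64. With the longest transcript Rrp1 (5.94) lay above Pes1 (5.68), and with coding length Nip7 (6.61) and Nop16 (6.51) lay above it (6.41). The partners of Pes1 in the PeBoW complex, which is needed to process the 28S and 5.8S precursor, were lower per kb of exon. Bop1 had 4.45 and Wdr12 had 2.81, a 7.07-fold range over the complex. Wdr12 has 11.96 kb of annotated exon, most of it outside the 1269 bases of its coding sequence. Methyltransferases of the large subunit stood near the top, with 5.41 for Nop2 and 5.36 for Ftsj3, as did the helicase gene Ddx18 with 5.42 and Rrp1 with 5.19. Rrp1b, its paralog, had the lowest level of the class per kb of exon, 2.45. The GTPase genes Gnl2 and Gnl3 (nucleostemin) had 4.61 and 4.26. Noc2l had 5.00 and Noc3l, which binds it, had 3.97. Nop16 (4.74), Nip7 (4.08) and Ebna1bp2 (4.06) lay between these, and Grwd1, a chaperone of the ribosomal protein Rpl3, had 2.94. Per kb of coding sequence Grwd1 (3.56) was the lowest of the class, under Rrp1b (4.27), and it was also the lowest without length correction.

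**Figure D2:**
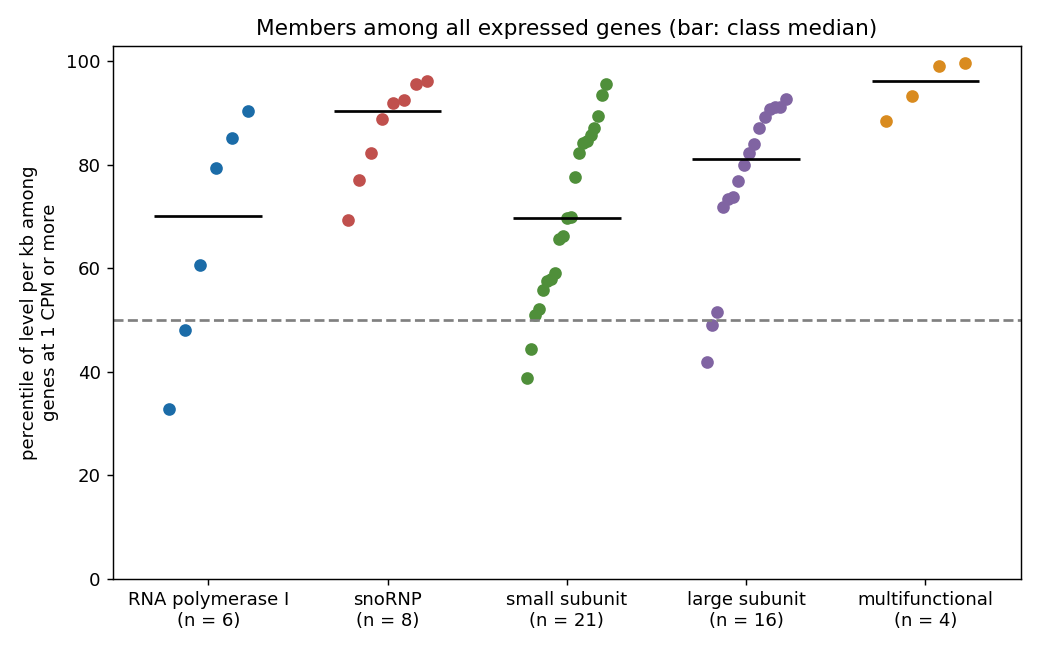
Percentile of each member's level per kb among 11477 genes at 1 CPM or more (vertical axis), by class, with 1 point per gene and a bar at the class median. All 8 snoRNP and all 4 multifunctional genes lie above the 50th percentile (dashed), as do 19 of 21 small subunit, 14 of 16 large subunit and 4 of 6 RNA polymerase I genes.

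Which subunit of a complex was highest depended in part on the length used. With the coding sequence as the length, Nop58 (7.90) passed Nop56 (7.39), Nop10 (8.13) passed Nhp2 (7.62), and Imp4 (6.26) passed Mphosph10 (5.46) on the log2 scale per kb. Wdr12 (6.05) came close to Pes1 (6.41) and passed Bop1 (4.88). Gar1, Heatr1 and Polr1e remained the lowest of their complexes with the exon length, the longest transcript and the coding length. Among all members, however, Rrp9 (3.30) was the lowest per kb of coding sequence, just under Polr1e (3.32). As library values were not analysed, no difference between subunits was tested.

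**Figure D3:**
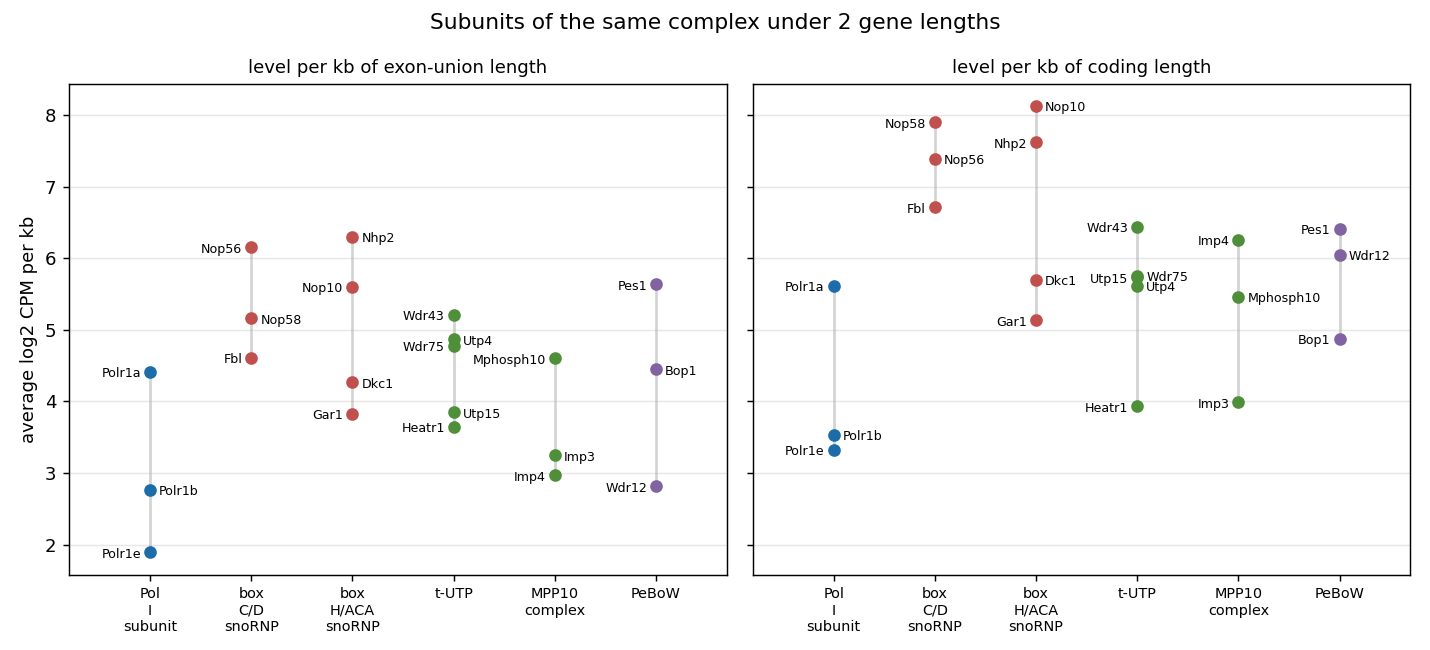
Average level (log2 CPM per kb) of the subunits of 6 groups of partner proteins, per kb of exon on the left and per kb of coding sequence on the right; each point is a gene and the lines join partners. Polr1a, Wdr43 and Pes1 are at the top of their groups in both panels. Only the polymerase I subunits keep their full order, and it changes in every other group.

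Further genes of the pathway were expressed as well. Of 71 symbols listed, 66 were in the table, and none of these 66 is a member. The other 5 are older names of genes counted under current symbols, 1 of them (Cirh1a) of the member Utp4. All 66 were at 1 CPM or more, and their median level per kb was 3.65 on the log2 scale, between the median of expressed genes and that of the members. Polr1c (5.30) and Polr1d (4.85), subunits shared with RNA polymerase III, lay above the 3 polymerase I subunits among the members, and Taf1c, another subunit of SL1, was the lowest of the RNA polymerase I genes with 0.58. Snu13, the box C/D protein that is not among the members, had 5.78, and the other snoRNP genes listed ran from Nopchap1 (-1.11) to Ruvbl1 (6.14). Nopchap1 was low only per kb, since its level was 57.0 CPM and its annotated exons span 123 kb. Among the large subunit genes Rsl1d1 was the highest with 7.03 and Nle1 the lowest with 1.52, and among the small subunit genes the range ran from Utp25 (2.23) to Pno1 (5.58).

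Features of gene structure were compared with those of other expressed genes, without a test. In GENCODE M21, 8 members (14.5%) held 1 or more snoRNA genes within their span on the same strand, against 1.99% of 11180 expressed protein-coding genes. They were Taf1d with 8 snoRNA genes, Nop56 with 5, Nop58 with 4, Wdr43, Gnl3 and Ncl with 3 each, Tsr1 with 2 and Dkc1 with 1. The named ones include Snord57 and Snord110 in Nop56, Snord11 and Snord70 in Nop58, Snord53 and Snord92 in Wdr43, and Snora75 and Snord82 in Ncl. The 8 hosts had a median level per kb of exon of 4.71 on the log2 scale and the 47 other members one of 4.60. Without length correction the medians were further apart, 7.17 for the hosts and 6.49 for the other members, so the comparison depends on the length used. A protein-coding gene started on the opposite strand within 1 kb upstream of 14 members (25.5%), against 11.2% of expressed protein-coding genes. Nop9 and Dhrs1 started 3 bases apart, Ebna1bp2 and Cfap57 22 bases apart, and Noc4l and Ddx51, itself a large subunit factor, 34 bases apart. Exons of 22 members (40.0%) overlapped exons of a gene on the other strand, against 32.0% of expressed protein-coding genes. On the same strand, exons of 0 members overlapped those of another gene, snoRNA and microRNA genes left aside, against 6.74% of expressed protein-coding genes. The paper names a directional library kit, but whether strand was used in counting is not given in the sources used here. Counts of the 22 genes with an overlap on the other strand may therefore be affected by reads of the overlapping gene.

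Promoter sequences of RefSeq (GRCm38.p6), from 250 bases before to 50 after the start, were at hand for 49 members, with 58 promoters. A gene was counted when any of its promoters held the motif, so the shares also depend on promoters per gene. For 46 of the 58, bases 21 to 50 after the start lay in a GENCODE transcript of the gene. The E-box CACGTG is the site of MYC and other basic helix-loop-helix proteins and reads the same on both strands. It occurred in 11 of the 49 members (22.4%), against 12.1% of 9373 expressed genes and 8.09% of all 27025 genes with a promoter. CCGGAAG, a core read by ETS factors, occurred on either strand in 19 (38.8%), against 21.2% of expressed and 9.93% of all genes. GGGCGG was found in 73.5% of the members and 70.2% of expressed genes, and TATAAA in 2 members, Dkc1 and Pes1 (4.08%), against 8.34% of expressed genes. Of the 12 E-boxes in the members, 5 ended before the start, in Imp4, Nop2, Utp18 and, at 2 places, Rrn3. They are shown with up to 20 bases on each side, in the direction of the gene, with the E-box in capitals.
Imp4, chr1:34439688-34439733, plus strand: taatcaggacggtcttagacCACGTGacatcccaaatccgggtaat
Nop2, chr6:125131803-125131848, plus strand: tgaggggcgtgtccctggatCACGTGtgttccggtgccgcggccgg
Utp18, chr11:93885767-93885806, minus strand: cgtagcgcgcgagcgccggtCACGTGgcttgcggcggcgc
Rrn3, chr16:13780464-13780509, plus strand: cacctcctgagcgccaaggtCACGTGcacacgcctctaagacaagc
Rrn3, chr16:13780631-13780676, plus strand: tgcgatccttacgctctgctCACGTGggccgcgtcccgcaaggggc
The E-box began 121 bases before the start in Imp4, 60 in Nop2, 20 in Utp18, and 215 and 48 in Rrn3. A match of letters is a description of the sequence, and binding was not measured.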

How the data were processed

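RNA of 6 B16F10 libraries was sequenced (3 OLO, 3 OZO). Per the labels and the methods, the authors aligned reads to mm10 with HISAT2 (2.1.0), counted them with featureCounts (2.1.1) and used limma-voom (3.58.1). The deposited value used here is the average log2 CPM of each gene over all libraries, printed as the authors' mean with no SD. The other 5 value columns hold the authors' own comparison of OZO with OLO (log2 fold change, statistic, p-values, log-odds) and were not used, so the planned test of OZO against OLO was not made. Depth came from the average shared by 6025 genes without reads. Exon-union, longest transcript and coding lengths came from GENCODE M21 on GRCm38, in which 23906 of 24126 Ensembl identifiers were found. Levels were divided by length in kb. The background was genes of at least 1 CPM. Described in full were complexes, multifunctional members and the highest and lowest of each class. Promoters came from RefSeq GRCm38.p6. Members and lists were chosen with earlier results of these data known. The steps for library size and average level were checked on counts simulated from the same averages, which tests their arithmetic only. Gene lengths and overlapping genes were not part of that check. Python 3.11.15, numpy 2.4.6, pandas 2.3.3 and matplotlib 3.10.9 were used.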

Additional observations from a re-analysis of the deposited data

How the results depend on the processing

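The choice of gene length moved every median level, as it changes the unit. Per kb of the longest transcript the median of all members was 4.93 on the log2 scale in place of 4.60, and per kb of coding sequence it was 5.73. The class medians per kb of the longest transcript were 4.52 for RNA polymerase I, 5.51 for snoRNP, 4.29 for small subunit, 4.92 for large subunit and 7.11 for multifunctional genes. Per kb of coding sequence they were 5.98, 7.05, 4.71, 5.88 and 8.53, and without length correction 6.98, 6.59, 6.06, 6.44 and 9.37, in the same order. The multifunctional genes were the highest class and the small subunit factors the lowest with each of these lengths, whereas RNA polymerase I genes passed the large subunit factors with coding length and also the snoRNP genes without length correction. Annotated retained introns and long untranslated regions enter the exon length, and Gnl3 had the greatest rise from exon length to longest transcript, 1.43 on the log2 scale.

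No paired analysis was possible because the value analysed is 1 average over all libraries. For the same reason the other tests, normalizations, filters and pseudocounts, and leaving out each library, were not run.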
